A study of Caenorhabditis elegans with 2 samples.

Results

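Presynaptic assembly and vesicle transport were represented by 6 genes, unc-104, rab-3, aex-3, syd-1, syd-2 and rpm-1, taken by name from 19973 protein-coding genes on the 6 nuclear chromosomes. Binding of the forkhead protein FKH-10 near them was read from chromatin immunoprecipitation and sequencing (ChIP-seq) peak lists of whole first-stage (L1) Caenorhabditis elegans larvae. The animals were of strain OP337, a mixed-sex population with the unc119(ed3) mutation and the integrated transgene wgIs377, which carries fkh-10 tagged with TY1, EGFP and FLAG together with an unc119 marker. Both replicates carry the transgene, whose product has its tag at the C terminus, and no animals without it were analysed here. There was 1 group of 2 biological replicates from separate samples of worms and no second condition, so all values are descriptions of that strain at that stage and no test between groups exists. Peaks from whole larvae do not show in which cells a site was occupied.

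A synapse is built from proteins made in the neuron's cell body. UNC-104, a kinesin of the KIF1A type, carries synaptic vesicle precursors along the axon. RAB-3 is the small GTPase on the surface of synaptic vesicles, and AEX-3, a protein of the DENN/MADD type, is the exchange factor that loads it with GTP. SYD-1, a protein with PDZ and RhoGAP-like domains, and SYD-2, the worm liprin-alpha, recruit the other proteins of the active zone, the membrane patch where vesicles fuse. RPM-1 is a large ubiquitin ligase that restrains synapse and axon growth by acting on the DLK-1 kinase pathway. Many worm transcripts are trans-spliced, which removes their original first bases, so an annotated start can lie downstream of the site where transcription begins.

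The authors kept as optimal the peaks that passed a limit on the irreproducible discovery rate (IDR), a measure of how well replicates match. A summit is the position of a peak's maximum, and this optimal set placed 7 of them in the windows of 5 of the 6 genes, each window running from 5000 bp upstream of the gene start to the gene end. The sixth, rpm-1, lies in a stretch with no listed summit at all and is treated at the end. These 7 summits are the sites on which the results turn, and 101 bases around each are given here from the RefSeq copy of assembly WBcel235 (ce11), on the strand of the gene. Capitals mark GAGAG and its complement CTCTC, a word chosen after these sequences were read.
unc-104, 1902 bp upstream, chrII:6993035-6993135, plus strand: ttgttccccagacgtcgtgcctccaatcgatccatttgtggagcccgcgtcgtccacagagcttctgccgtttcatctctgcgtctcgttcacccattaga
rab-3, 42 bp upstream, chrII:5727845-5727945, minus strand: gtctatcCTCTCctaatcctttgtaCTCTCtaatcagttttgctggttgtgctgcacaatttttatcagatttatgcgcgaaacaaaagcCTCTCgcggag
rab-3, first intron, chrII:5725247-5725347, minus strand: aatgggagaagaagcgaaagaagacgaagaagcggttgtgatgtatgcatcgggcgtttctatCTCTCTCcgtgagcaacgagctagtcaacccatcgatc
aex-3, 996 bp upstream, chrX:760680-760780, minus strand: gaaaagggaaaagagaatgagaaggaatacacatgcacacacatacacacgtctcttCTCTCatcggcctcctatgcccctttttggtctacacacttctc
syd-1, 461 bp into the gene, chrII:7594401-7594501, minus strand: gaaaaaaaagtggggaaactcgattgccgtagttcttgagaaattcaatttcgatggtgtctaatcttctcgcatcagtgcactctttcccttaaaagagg
syd-1, 1511 bp into the gene, chrII:7593351-7593451, minus strand: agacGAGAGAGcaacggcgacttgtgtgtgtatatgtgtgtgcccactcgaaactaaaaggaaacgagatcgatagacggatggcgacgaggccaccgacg
syd-2, 475 bp upstream, chrX:10555664-10555764, minus strand: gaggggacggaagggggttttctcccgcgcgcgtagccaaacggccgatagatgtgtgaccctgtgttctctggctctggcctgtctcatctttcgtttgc

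The lists behind these values held 28842 peaks for replicate 1, 28896 for replicate 2, 19924 for the pooled replicates and 2602 in the optimal set. Each peak has a signal value deposited by the authors, whose scale is not given, so signals are set beside each other within a list. Ratios between the replicates are read beside the same ratio over all optimal peaks. The lowest optimal signal was 37.0. Read depth is unknown, since the lists hold no read counts.

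Of the 6 genes, 5 had an optimal summit in the window (83.3%), against 16.5% of all protein-coding genes. In this share and in the promoter share below, rpm-1 counts as a gene without a summit, although it could not be assessed. Longer windows catch more summits, and the members' windows spanned 11087 to 20639 bp, with a median of 13875 bp against 7027 bp over all genes. Among the 1967 genes with windows in that range, members included, 31.9% had an optimal summit. Counts of 2 or more summits were found at rab-3 and syd-1, against 3.26% of all genes and 9.30% of the genes in that range. A narrower promoter window, which began 1000 bp before the gene start and ended 200 bp after it, held an optimal summit at rab-3, syd-2 and aex-3, which is 3 of 6 genes, against 6.38% of all genes. The 6 genes were chosen with earlier results of these data known, so these shares describe the members and support no wider statement.

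**Figure D1:**
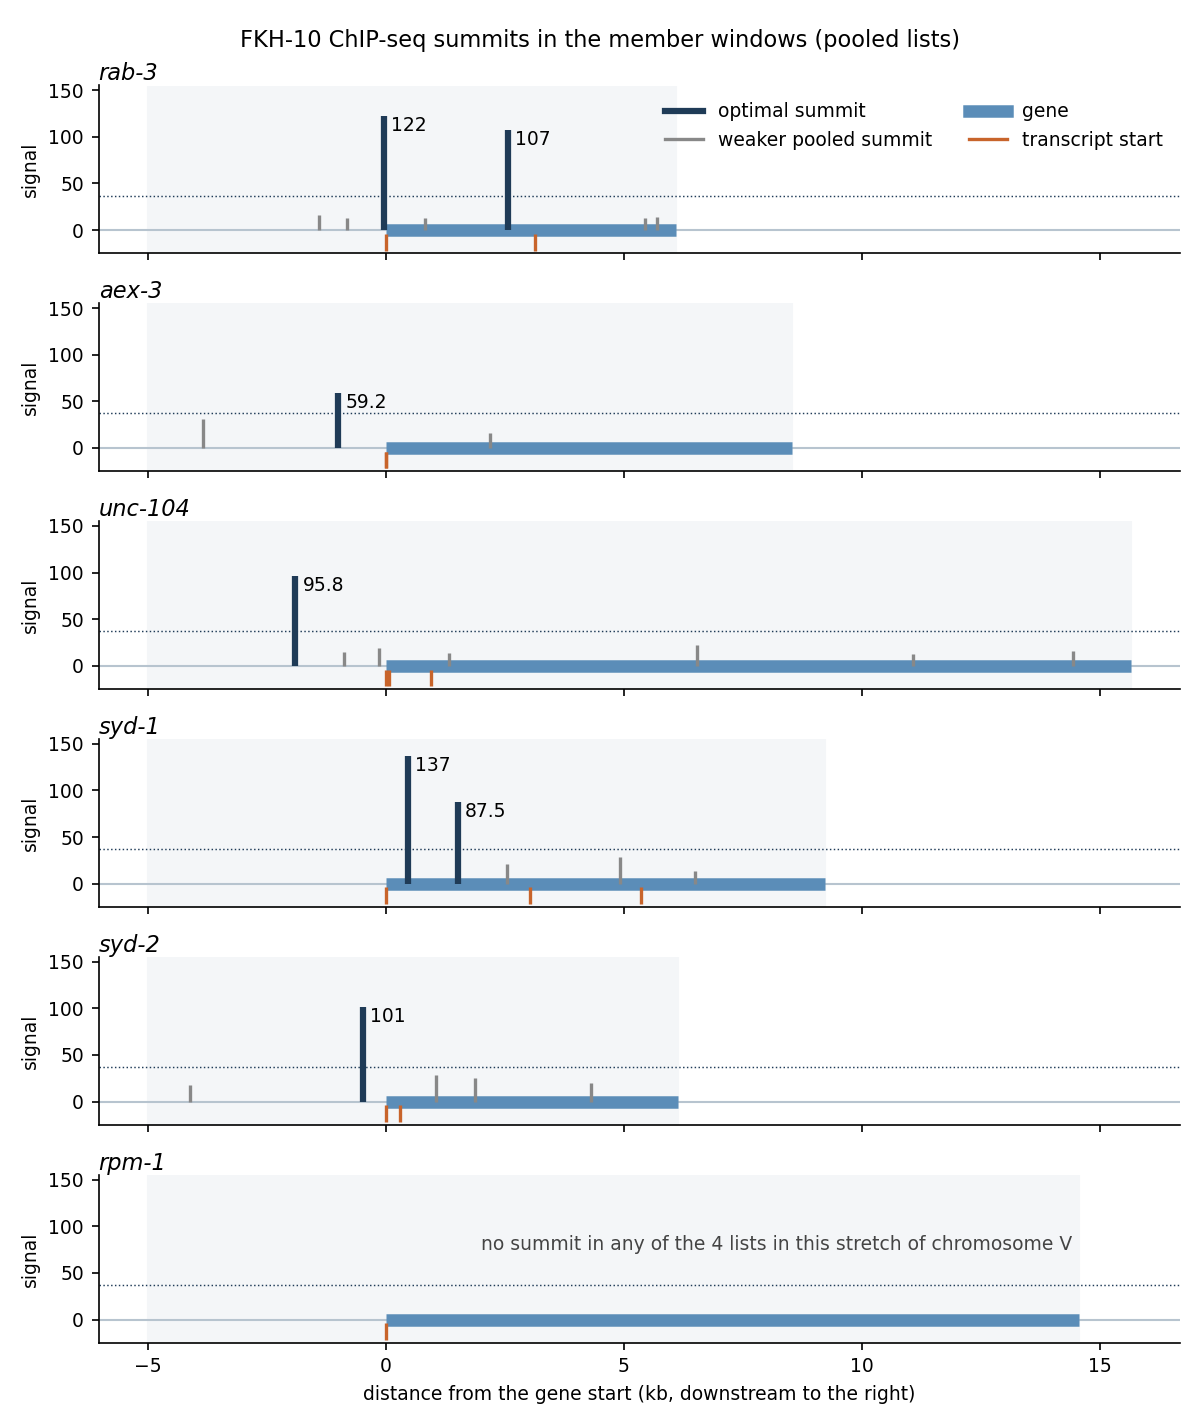
Summits of the pooled lists in the 6 gene windows, drawn as stems at their distance from the gene start (kb, x axis) with their signal as height (y axis). Dark stems are optimal summits, grey stems weaker pooled summits, the blue bar is the gene, orange ticks are transcript starts, the shaded area is the window and the dotted line is the lowest optimal signal, 37.0. The dark stems of unc-104, aex-3 and syd-2 stand upstream of the gene, both of syd-1 stand inside it, and rab-3 has 1 of each.

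The gene of the vesicle motor, unc-104 (WBGene00006831, chromosome II, 6994987 to 7010625, plus strand), had a single optimal peak far upstream and only weak peaks at its own starts. The peak (6992897 to 6993272) had its summit 1902 bp before the gene start, a signal of 95.8 and rank 498 of the optimal set. Its signal was 53.8 in replicate 1 and 54.8 in replicate 2, with ranks of 472 and 314. The ratio of replicate 1 to replicate 2 signal was 0.982, against a median of 1.14 over the optimal peaks listed in both replicates. The replicate summits were 84 bp apart, at 1910 and 1826 bp upstream. The nearest start of any other gene was that of the snoRNA gene C15F1.15, 872 bp away. The long non-coding RNA gene linc-73 lies between the summit and unc-104. The nearest other protein-coding gene start, that of C15F1.1, was 3205 bp away, so unc-104 was the nearest coding gene by start.

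At the annotated starts of unc-104 the pooled signal was low. The closest pooled summit, 139 bp upstream of the gene start, had a signal of 18.8, below the lowest optimal signal. Its signal was 10.1 in replicate 1 and 12.5 in replicate 2. Another pooled summit, 388 bp downstream of the third transcript start, had a signal of 14.1. The longest gene of the set also held 3 pooled summits deep in its body, with signals of 22.7, 13.2 and 15.7, of which the strongest had a peak in replicate 1 alone, with a signal of 19.9. The summit of 13.2 overlapped a peak in neither replicate list.

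The gene of the vesicle GTPase, rab-3 (WBGene00004267, chromosome II, 5721767 to 5727853, minus strand), had 2 optimal peaks, 2598 bp apart, near the starts of its 2 annotated transcripts. The first (5727707 to 5728082) had its summit 42 bp upstream of the gene start, with a signal of 122 and rank 240. Replicate 1 gave it 64.1 and replicate 2 gave it 54.8, and the replicate summits lay 7 bp apart. Of the 7 summits it is the closest to a start of its own gene. The start of the non-coding RNA gene C18A3.18 was closer still, 2 bp away. The second (5725109 to 5725484) lay in the first intron of the longer transcript, which is 2879 bp long, 567 bp upstream of the start of the shorter one. Its signal was 107, with rank 387.

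The intron peak of rab-3 differed more between replicates than the peak at the gene start. Replicate 1 gave it a signal of 69.8 and rank 192, replicate 2 a signal of 38.9 and rank 761, a ratio of 1.79. In replicate 1 it was the stronger of the pair and in replicate 2 the weaker, so the order of the 2 rab-3 peaks is not settled by these replicates. The annotation gives the shorter transcript no 5′ untranslated bases, its start being the first base of a coding exon that both transcripts share. The other 5 pooled summits of rab-3 had signals between 12.6 and 15.6, so the optimal pair stood well clear of the rest of the locus. Replicate 2 also listed a shoulder 247 bp upstream of the gene start, with a signal of 21.3.

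The gene of the RAB-3 activator, aex-3 (WBGene00000086, chromosome X, 751203 to 759734, minus strand), had the weakest optimal peak of the set, and the one at the border of the promoter window. The peak (760542 to 760917) had a signal of 59.2 and rank 1356 of 2602. The signals were 27.3 in replicate 1 and 28.5 in replicate 2, and the replicate summits were 5 bp apart. The pooled summit lay 996 bp upstream of the gene start, inside the window of 1000 bp, while the replicate summits lay 1017 and 1012 bp upstream, outside it. No other gene start was closer to this summit. A weaker pooled summit, 3843 bp upstream of aex-3, had a signal of 31.2, with 16.3 in replicate 1 and nearly the same in replicate 2. It lay 175 bp upstream of dyf-11, a divergent gene needed for building sensory cilia.

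**Figure D2:**
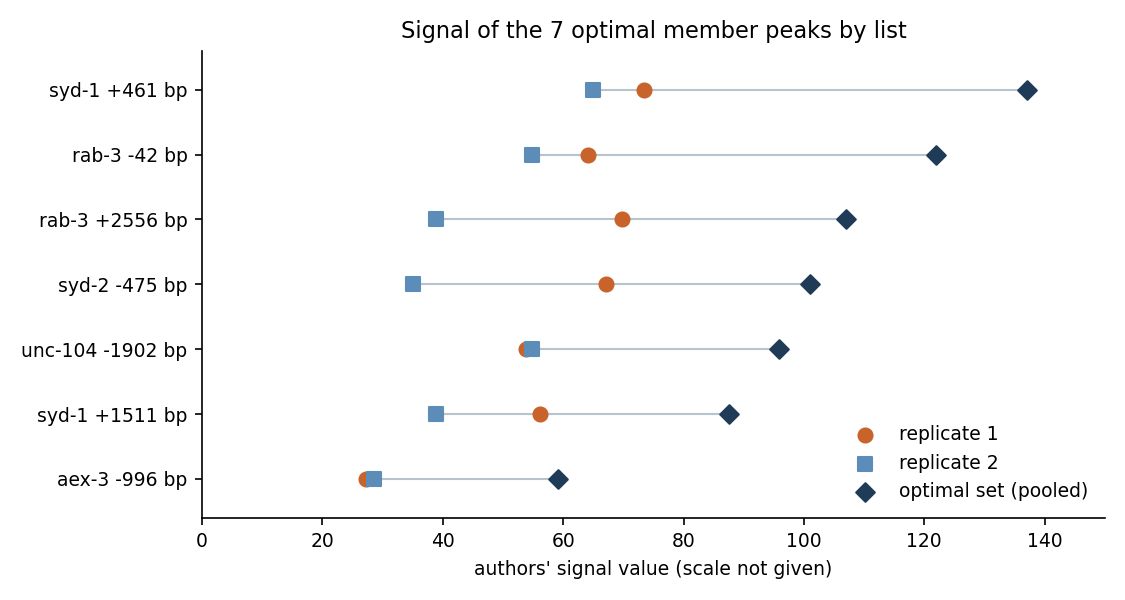
Signal value (x axis, the authors' scale) of the 7 optimal member peaks (rows, named by gene and distance of the summit from the gene start, minus being upstream), in replicate 1 (circles), replicate 2 (squares) and the optimal set (diamonds). The highest row in every list is the syd-1 peak at 461 bp and the lowest the aex-3 peak, while the rab-3 intron peak and the syd-2 peak have the widest gaps between replicates.

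The active zone organiser gene syd-1 (WBGene00006363, chromosome II, 7585695 to 7594912, minus strand) had the strongest peak of the set. Both of its optimal peaks lay in the second intron of the longest transcript, which is 2542 bp long, with summits 1050 bp apart. The stronger peak (7594346 to 7594498) had its summit 461 bp downstream of the gene start, a signal of 137 and rank 157. Replicate 1 gave it 73.4 and replicate 2 gave it 64.9, with ranks of 153 and 182. It ranked first among the 7 member peaks in both replicates. It was listed with a width of 153 bp, whereas the other 6 member peaks were 376 bp wide, which is also the median of all optimal peaks.

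The second syd-1 peak (7593213 to 7593588), 1511 bp downstream of the gene start, had a signal of 87.5 and rank 616. Replicate 1 gave 56.2 and replicate 2 gave 38.9, with summits 119 bp apart, the largest such distance among the members. Its summit lay inside the non-coding RNA gene F35D2.16 (7593309 to 7593587, plus strand), 92 bp from that gene's start. No syd-1 summit was optimal in the promoter window or upstream of the gene.

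The 2 internal starts of syd-1 each had a weaker pooled summit upstream. The summit 483 bp upstream of the start at 7591886 had a signal of 20.7, with 11.1 in replicate 1 and 7.24 in replicate 2. The summit 424 bp upstream of the start at 7589564 had a signal of 29.1, with 15.6 in replicate 1 and 5.66 in replicate 2. Both were below 37.0, the lowest signal of the optimal set.

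The liprin-alpha gene syd-2 (WBGene00006364, chromosome X, 10549106 to 10555239, minus strand) had a single optimal peak, upstream of both of its starts. The peak (10555526 to 10555901) had its summit 475 bp before the gene start, a signal of 101 and rank 437. Replicate 1 gave a signal of 67.1 and rank 227, replicate 2 a signal of 35.1 and rank 943. The ratio of 1.91 was the widest of the 7 peaks. The summit lay inside the non-coding RNA gene F59F5.9 (10555546 to 10555744, minus strand), 30 bp from that gene's start and so closer to it than to syd-2. Inside syd-2 the pooled list held summits with signals of 28.6, 25.5 and 19.7. The first was matched in replicate 2 alone (20.6) and the second in replicate 1 alone (23.2), so neither was listed by both replicates.

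**Figure D3:**
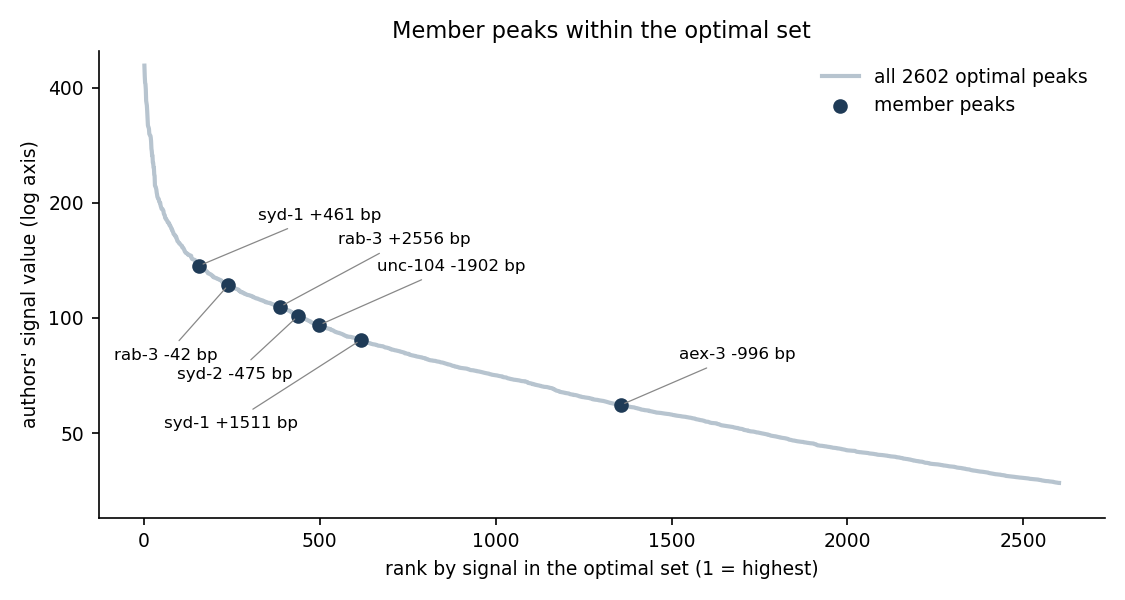
Signal (y axis, log scale) against rank (x axis) of all 2602 optimal peaks, with the 7 member peaks marked by gene and distance from the gene start. Of these, 6 stand between ranks 157 and 616, and the aex-3 peak stands at rank 1356.

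Among the 5 genes with a peak, the order of the strongest signals was syd-1 (137), rab-3 (122), syd-2 (101), unc-104 (95.8) and aex-3 (59.2). Ranked by strongest summit in the window among the 3300 genes that had any, they came 249, 374, 649, 734 and 1864. The ends of this order held in both replicates, with syd-1 highest and aex-3 lowest. The middle did not, since syd-2 was above unc-104 in replicate 1 (67.1 and 53.8) and below it in replicate 2 (35.1 and 54.8). In replicate 2 rab-3 and unc-104 both had a signal of 54.8 after rounding, with unc-104 just ahead by rank (314 against 315).

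Of the 7 member peaks, 6 were in the upper part of the optimal set, with rank 616 or better. The aex-3 peak, with a signal of 59.2, was just below the median of all optimal peaks, 60.7. The median signal of the 7 was 101. The peak of each of the 7 overlapped a peak among the 2602 of highest signal in both replicates, as did 72.0% of all optimal peaks. Such matches depend on signal, so with 6 of the 7 ranked 616 or better they are no separate sign of agreement. The ratio of replicate 1 to replicate 2 signal had a median of 1.17 over the member peaks and 1.14 over the 2591 optimal peaks listed in both replicates. The ratio ranged from 0.959 to 1.91 over the members and from 0.195 to 8.15 over all these peaks, whose quartiles were 0.886 and 1.49. The rab-3 intron peak and the syd-2 peak lay above the upper quartile. The distance between replicate summits had a median of 29 bp over the members and 30 bp over all.

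The same summits were also counted by transcript start. The members have 13 different annotated starts, and 2 of these, the first starts of rab-3 and syd-2, had an optimal summit within 500 bp upstream, against 4.80% of 29784 starts of protein-coding genes. A pooled summit of any signal lay within that reach of 6 of the 13, against 17.2%. Of these 6, 2 belong to unc-104 starts that share 1 summit. The distance from the summit to the nearest coding transcript start had a median of 567 bp over the 7 member summits and 1024 bp over all optimal summits. The member summits were taken from windows set around coding genes, which limits this distance, while all optimal summits were not. The 2 medians are therefore not a like comparison. Summits inside a gene annotated as ncRNA numbered 3 of 7, at rab-3, syd-1 and syd-2, against 10.4% of all optimal summits. At rab-3 the summit 42 bp upstream lay inside 2 of them, C18A3.16 on the plus and C18A3.18 on the minus strand.

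The sequences printed above were searched for words on both strands within 50 bp of the summit. The forkhead words ATAAACA and, counted together with it, ATAAATA as well as GTAAACA and also GTAAATA, were found at 0 of 7 member summits, and at 131 of all 2602 (5.03%). With 100 bp searched to each side they were found at 1 of the 7. The E-box CACGTG was found at 0 of 7 and at 2.42% of all. GAGAGAGA was found at 1 of 7, in the rab-3 intron, and at 6.69% of all. The shorter GAGAG, which every GAGAGAGA contains, was found at 4 of 7, at both rab-3 sites, at aex-3 and at the syd-1 site 1511 bp into the gene, against 43.0% of all. That share is close to the background, and with 7 windows an absent word says only that these letters were not there.

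Base composition varied widely among the members. G and C made up 59.4% of the syd-2 window, a value reached by 4.61% of optimal windows, and 40.6% of the window at the stronger syd-1 summit, reached by 73.4%. The median was 49.5% over the members and 45.5% over all. The longest stretch of purines only or pyrimidines only was 17 bases, at aex-3, against a median of 10 over all optimal windows, and the shortest was 6, at unc-104. No single word or composition was shared by all 7 windows among those measured.

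The remaining gene, rpm-1 (WBGene00004457, chromosome V, 8805399 to 8819955, minus strand), could not be described. None of the 4 lists has a summit between 8804360 and 8904165, a stretch of 99805 bp that holds the whole rpm-1 window and 28 protein-coding genes, rpm-1 included. Across the 6 chromosomes the median distance between neighbouring summits of the 4 lists was 539 bp, the 99th percentile was 9183 bp, and this stretch was the second longest. Such a stretch reaches far beyond 1 gene, so the count of 0 for rpm-1 is not read as a lack of binding. The nearest optimal summit on the side of its 3′ end, at 8801353 with a signal of 103, lay 4046 bp past the gene end and 325 bp upstream of magu-2.

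The 6 genes work with many others, and 59 of them, chosen from textbook knowledge with earlier results of these data known, were grouped by role. Promoter summits were found at 13 of the 59, against 6.38% of all genes, and summits in the window from 5000 bp upstream to the gene end at 35 (59.3%), against 16.5%. The median window of the 59 was 11484 bp, longer than that of all genes. The values of each class follow, and differences between classes were not tested.

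Genes of axonal transport motors, adaptors and regulators had a promoter summit at 8 of 28 (28.6%). They were led by klc-1, a kinesin light chain gene, with a signal of 127 (68.7 in replicate 1 and 54.8 in replicate 2), although its summit also lay in the promoter of let-70. The kinase gene jnk-1 followed with 87.1, then unc-16, which encodes a JIP3-type adaptor, with 73.8, unc-14, whose product binds kinesin and UNC-51, with 70.8, and the kinase gene cdk-5 with 67.1. The other 3 were unc-76 (66.0), jkk-1 (61.6) and dnc-1 (58.0), of which the dnc-1 summit also lay in the promoter of lsm-7. The genes jnk-1, jkk-1 and unc-16 encode a kinase, the kinase that activates it and an adaptor that binds both.

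Among partners of RPM-1 and the DLK-1 pathway, 2 of 10 had a promoter summit. They were glo-4, an RCC1-like protein that works downstream of RPM-1, with a signal of 124 and 514 bp upstream, and cebp-1, a transcription factor of the DLK-1 pathway, with 75.9. Of the Rab regulators and effectors, 2 of 6 did: rab-5, an endosomal GTPase, with 53.1 and rbg-1, the worm homologue of a Rab3 GTPase-activating subunit, with 41.4. Both summits also lay in the promoter of another gene, nmat-2 and plp-2, and the rbg-1 peak did not overlap a top peak in both replicates. The 15 scaffold and synapse assembly genes had a promoter summit at 1, the neuroligin gene nlg-1 (89.9), which is 6.67% and near the share of all genes, yet 10 of them (66.7%) had a summit somewhere in the longer window. Such summits can belong to a neighbouring gene, and genes with long windows hold more of them.

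**Figure D4:**
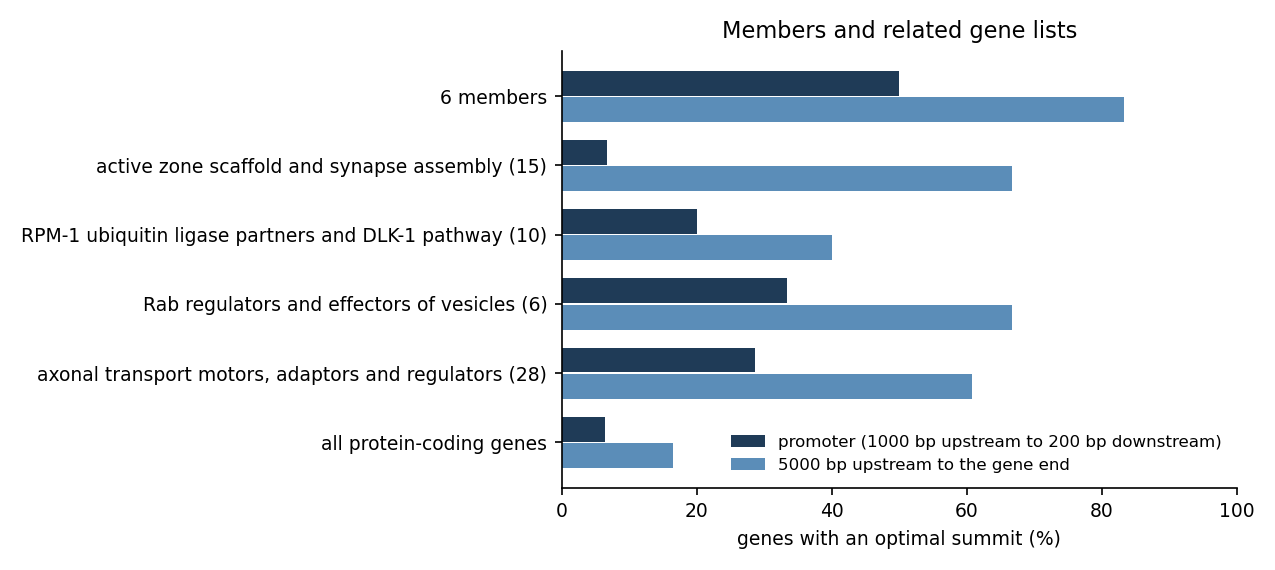
Percentage of genes (x axis) with an optimal summit in the promoter (dark bars) or from 5000 bp upstream to the gene end (light bars). Rows are the 6 members, 4 related lists (number of genes in brackets) and all protein-coding genes. The member bars count rpm-1 as a gene without a summit. In the longer window the members have 83.3% and all genes 16.5%, and in promoters 3 of 6 members have a summit and 6.38% of all genes do, while scaffold and synapse assembly genes have 6.67% in promoters and 66.7% in the longer window.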

How the data were processed

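Per the text files deposited with the samples, the authors called peaks on ce11 for each replicate and for both replicates pooled, and thresholded them by IDR into an optimal set. The signal value of each peak is the authors' own. The sources used here give no aligner, peak caller, version or IDR limit. Per the same files each call also used a further alignment file, which was not analysed here. The ce10 lists were not used. All 2602 optimal peaks were found unchanged in the pooled list. Summits were placed with Python 3.11.15 and pandas 2.3.3 on Ensembl release 115 (WBcel235, 1-based), with the window from 5000 bp upstream to the gene end and the promoter from 1000 bp upstream to 200 bp downstream. A replicate peak is the overlapping one of highest signal (at least 1 bp), and a top peak is among the 2602 highest of its replicate. No match was found for ppm-1 and rab-27 among 61 related genes. Window, overlap and word counts were checked on simulated data.

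The members, lists and words were chosen with earlier results of these data known. The text names all members with their optimal summits, and of each related list at most 5 genes with a promoter summit, by highest signal, plus the other 3 of axonal transport. No test was made, since there is 1 condition. Depth is unknown, so no interval was computed. The signals of both replicates stand in place of an SD.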

Additional observations from a re-analysis of the deposited data

How the results depend on the processing

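The counts of members with a summit were 5 with the top peaks of replicate 1 alone and with those of replicate 2 alone, 4 with the 1301 optimal peaks of highest signal, where aex-3 was lost, and 4 with a window from 1000 bp upstream, where unc-104 was lost. With the gene body alone they fell to 2 genes and 3 summits. All pooled peaks gave 27 summits in the member windows and 31 related genes with a promoter summit. Promoter summits were found at 2 members with the top peaks of either replicate, since both replicate summits of aex-3 lay outside the window, and at 5 with each summit assigned to its closest coding gene start. Of the related genes, the promoter count was 8 with the short window (500 bp upstream to 100 bp downstream), 20 with 2000 bp upstream, 31 by nearest start, and 12 to 15 with 1 replicate alone. Taking the strongest optimal peak of each of the 5 genes, the median rank was 437 in the optimal set and 263 to 315 in the replicate lists. The median distance of these summits to a transcript start was 475 bp, and 426 to 466 bp in the replicates. All 7 peaks had, in each replicate, a summit within 100 bp of the optimal summit. With an overlap of 50% of both peaks required, 6 were matched in both replicates. The peak not matched was the stronger syd-1 peak, whose listed width of 153 bp is too narrow to cover that share of either replicate peak. No paired analysis was possible because there is 1 group. Read depth is unknown, so no interval could be put on any signal.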
